A study of Mus musculus with 4 samples.

Results

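The genes described here encode the extracellular matrix and the enzymes that build, cross-link or cut it. They were chosen by a rule on gene symbols, set with earlier results of these data known: collagen chains, laminins, nidogens, fibulins, fibrillins, thrombospondins and 10 named matrix genes, with the Lox, Plod, P4ha, Mmp, Adam, Adamts and Timp families. Of the 11111 genes in the deposited table, 81 met this rule. All 81 are protein-coding in GENCODE M21 with the same symbol, none was at 0 reads in any library, and 15 had a mean under 50 reads. They comprise 23 collagen chains, 6 basement membrane genes, 13 genes of glycoproteins and proteoglycans, 10 of collagen-modifying enzymes and a collagen chaperone, 3 Timp inhibitors, 10 Mmp proteases, 7 Adamts and 9 Adam genes.

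Expression was measured by RNA sequencing in 4 libraries from bone marrow-derived macrophages (BMDMs) of wild-type C57BL/6 mice, whose age is not given in the labels. Marrow cells were grown for 7 days, with fresh medium on day 4. The Ctrl MO group (2 libraries) received a control morpholino, a synthetic antisense oligomer, at 2 µM; the Reg1-MOs group (2 libraries) received morpholinos that target Regnase-1 at 2 µM, in each case for 24 hours and with Endoporter (6 µl/ml), a peptide that carries it into cells. All 4 cultures were then given the bacterial product lipopolysaccharide (LPS, 10 ng/ml) for 4 hours, so that no library shows the matrix genes without LPS or without a morpholino. In the table the Reg1-MOs libraries carry the headings MO1 and MO2. The targeting morpholinos bear the same names, and the labels leave it unclear if a library got a single one or the pair. No label states that libraries of a group were taken from different animals or wells. The p-values therefore reflect the spread between the libraries alone, and that spread may be technical.

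Regnase-1 is an RNase of immune cells that cuts inflammatory mRNAs and its own mRNA at stem-loops, and the targeting morpholinos are known to shield its mRNA from that cut. The matrix is laid down mainly by fibroblasts and other stromal cells. They secrete fibrillar collagens as triple-helical procollagens, which are hydroxylated by Plod and P4ha enzymes, chaperoned by Serpinh1 (HSP47) and cross-linked outside the cell by Lox enzymes. Macrophages are better known for remodelling it: they secrete the elastase Mmp12 and the collagenase Mmp13, carry the membrane proteases Mmp14, Adam10 and Adam17, and release Timp proteins that restrain them. Marrow cultures can keep some stromal cells beside the macrophages, and in a bulk RNA sample fewer cells of a type and less RNA per cell cannot be told apart.

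The table holds 23369753 to 25213695 reads per library, with a median of 404 to 437 reads per gene. Zc3h12a, the gene of Regnase-1, was read 3407 and 3572 times in the controls and 7799 and 6753 times after Reg1-MOs (log2 fold change 1.10, SE 0.07, limma adjusted p = 4.01e-04). The Reg1-MOs group is thus one of raised, not lowered, Zc3h12a RNA. All 10 macrophage markers listed had rows; 7 of them, Csf1r (0.01) and Adgre1 (-0.18) included, did not pass the test, Itgam (-0.67) and Lyz2 (-0.27) fell and Cd68 (0.34) rose. The Cd68 and Lyz2 calls ended without either control library, among others. Fold changes throughout are Reg1-MOs over Ctrl MO on the log2 scale, from limma fitted to all 11111 genes of the log2 table, with 2 libraries per group. SE is limma's moderated standard error, and a gene is said to fall or rise where its Benjamini-Hochberg adjusted p, over all 11111 genes, was under 0.05.

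A larger share of the matrix genes was lower with Reg1-MOs than of the table as a whole; since the list was set with such results known, its counts describe it and are no independent test. Of the 81, 39 fell, 3 rose and 39 did not pass. Among all genes, 12.2% passed in either direction, 6.03% lower and 6.22% higher. Of the members, 28 fell by at least 2-fold, against 1.14% of all genes. Both Reg1-MOs libraries lay below both Ctrl MO libraries for 55 members, a pattern shown by 31.8% of all genes, and above both for 9, against 27.1%. The median log2 fold change was -0.52 over the 81 and -0.03 over the table. The share that fell was as high among members with a mean of at least 50 reads, at 33 of 66, against 6.52% of all genes at that level.

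Most of the falls were in genes of structural proteins. Of the 42 collagens, basement membrane genes and glycoproteins, 28 fell (median -1.003) and 2 rose, while of the 26 Mmp, Adam and Adamts genes 5 fell (median -0.17) and 1 rose. The medians describe these lists, and the difference between them was not tested. The 26 Mmp, Adam and Adamts genes were grouped by symbol and are called proteases below, without a check that each product is one. Their median was -0.08 among those averaging 50 reads or more and -0.10 with quantile normalization. The count of falls among all 81 genes was 39, and 21 without a variance trend. It was also lower when Reg1-MOs replicate 1 was left out. Markers of stromal cells that are no matrix genes were lower in the same libraries, with 14 of 18 falling and a median of -1.03.

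**Figure D1:**
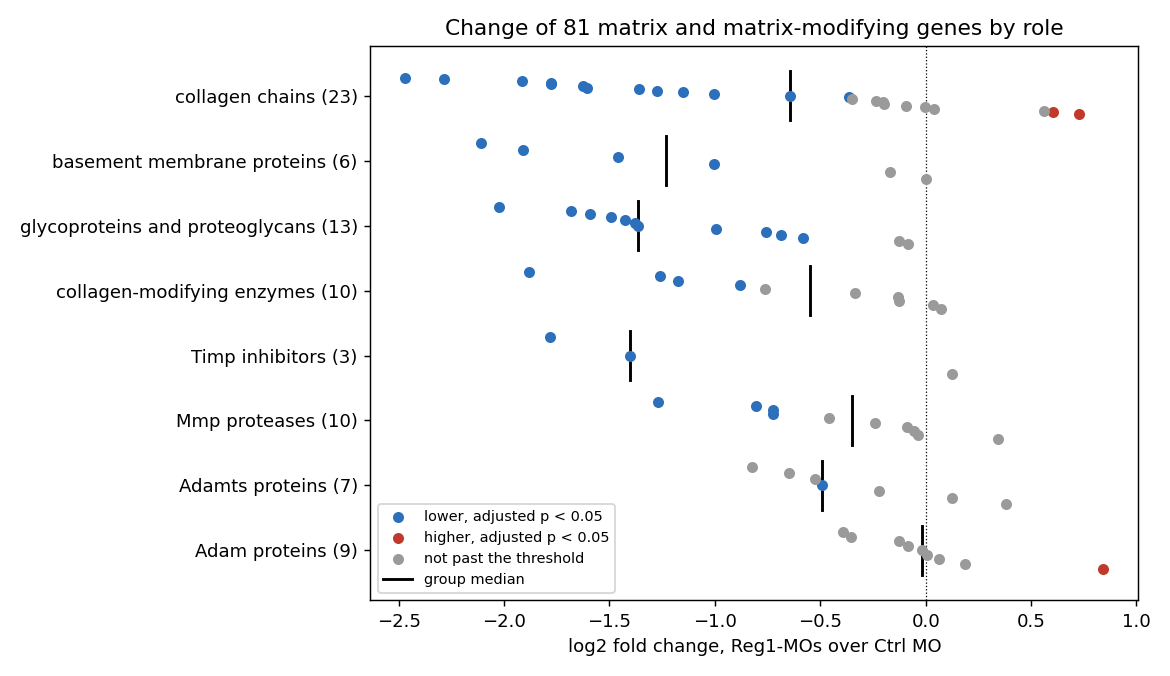
Each point is 1 of the 81 genes, placed by its log2 fold change (Reg1-MOs over Ctrl MO, horizontal axis) and its role (vertical axis, number of genes in brackets); blue points fell, red points rose, grey points did not pass, and bars are group medians. Glycoproteins and proteoglycans have a median of -1.36 with 11 of 13 falling, while the 9 Adam genes lie around 0 with Adam8 alone past the threshold.

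Of the 23 collagen chains, 13 fell, 2 rose and 8 did not pass, with a median of -0.65. The genes of the type I collagen chains, the main fibre of connective tissue, were among the best counted. Col1a1 went from 759 and 854 reads in the controls to 214 and 243, 3.43-fold lower (log2 -1.78, SE 0.13, limma adjusted p = 5.96e-04). Col1a2 had 922 and 992 reads against 277 and 327, 3.09-fold lower (-1.63, SE 0.13, adjusted p = 8.89e-04). In both genes every Reg1-MOs library lay far below both controls. Col3a1, whose type III collagen forms thin reticular fibres, went from 228 and 219 reads to 83 and 86 (-1.36, SE 0.13).

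The falls of other fibril-forming and fibril-associated chains varied in size. The largest fall of the 81 was that of Col12a1, a chain that decorates type I fibres, from 271 and 301 reads to 40 and 62 (-2.47, SE 0.24, limma adjusted p = 0.00157). Col5a1 went from 152 and 151 reads to 34 and 44 (-1.92, SE 0.20), and its partner chain Col5a2 from 263 and 249 to 58 and 114 (-1.61, SE 0.31). Type V chains start fibrils. The groups did not overlap in either gene, although the Reg1-MOs libraries differed from each other by 1.09 (log2) in Col5a2, the widest such gap among the collagens. The network-forming Col8a1 had 48 and 56 reads against 11 and 9 (-2.29, SE 0.26), and the fibril-associated Col16a1 had 32 and 28 against 11 and 6 (-1.78, SE 0.35). These 2 genes rest on few reads.

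The 3 type VI chains, which form beaded microfibrils around cells, fell together. Col6a1 went from 209 and 183 reads to 77 and 80 (-1.27, SE 0.14). Col6a3 (-1.15, SE 0.23) fell with a larger error, and Col6a2 fell by 1.00 (SE 0.20); the call of Col6a3 ended without Reg1-MOs replicate 1 (limma adjusted p = 0.0746), and that of Col6a2 without either Reg1-MOs library (adjusted p up to 0.0891). The fibrillar Col27a1, with 2199 and 1972 reads against 1394 and 1204, fell by 0.65 (SE 0.08), and Col11a2 (1082 and 1019 against 840 and 749) fell by 0.37 (SE 0.08). The Col11a2 call ended without any 1 of the 4 libraries (adjusted p up to 0.232). Without a variance trend the calls of Col16a1, Col5a2, Col6a3, Col6a2, Col27a1 and Col11a2 ended (adjusted p up to 0.109), and 7 collagen falls were left.

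The collagen chains that rose belong to the multiplexins, which sit in or beside basement membranes and carry an endostatin domain. Col18a1 was by far the most read collagen. It went from 5598 and 5263 reads in the controls to 8510 and 7554, 1.52-fold higher (log2 0.60, SE 0.07, limma adjusted p = 0.00222). The other multiplexin, Col15a1, went from 75 and 59 reads to 123 and 94 (0.73, SE 0.18, adjusted p = 0.0424), a call lost when Ctrl MO replicate 2, or one of the Reg1-MOs libraries, was left out (adjusted p up to 0.191) and without a variance trend (0.101). Among the 8 chains that did not pass, log2 fold changes ran from -0.35 (Col4a2) to 0.56 (Col7a1, the chain of anchoring fibrils, with 9 to 15 reads).

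The summed level of all collagen chains differed less than most single chains did. RPM here is reads per 1000000 of the library size that the deposited values imply. These sizes, 17767798 to 19377000, are below the 23369753 to 25213695 reads in the table. In RPM the 23 chains summed to 684 and 659 in the controls and 650 and 647 in the Reg1-MOs libraries. Col18a1 and Col27a1 made up 409 and 380 of this in the controls and 511 and 493 in the others. The other 21 chains summed to 275 and 279 against 139 and 154, and Col1a1, Col1a2 and Col3a1 together to 100.2 and 108 against 29.7 and 37.0. Per length, in RPKM (reads per kilobase of merged exon and per 1000000 reads in the table), Col18a1 stood at a mean of 30.9 with Ctrl MO and 47.6 with Reg1-MOs, Col1a1 at 4.90 and 1.45, and Col1a2 at 3.07 and 1.02. On this scale Col18a1 was above Col1a1 and Col1a2 in both groups.

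**Figure D2:**
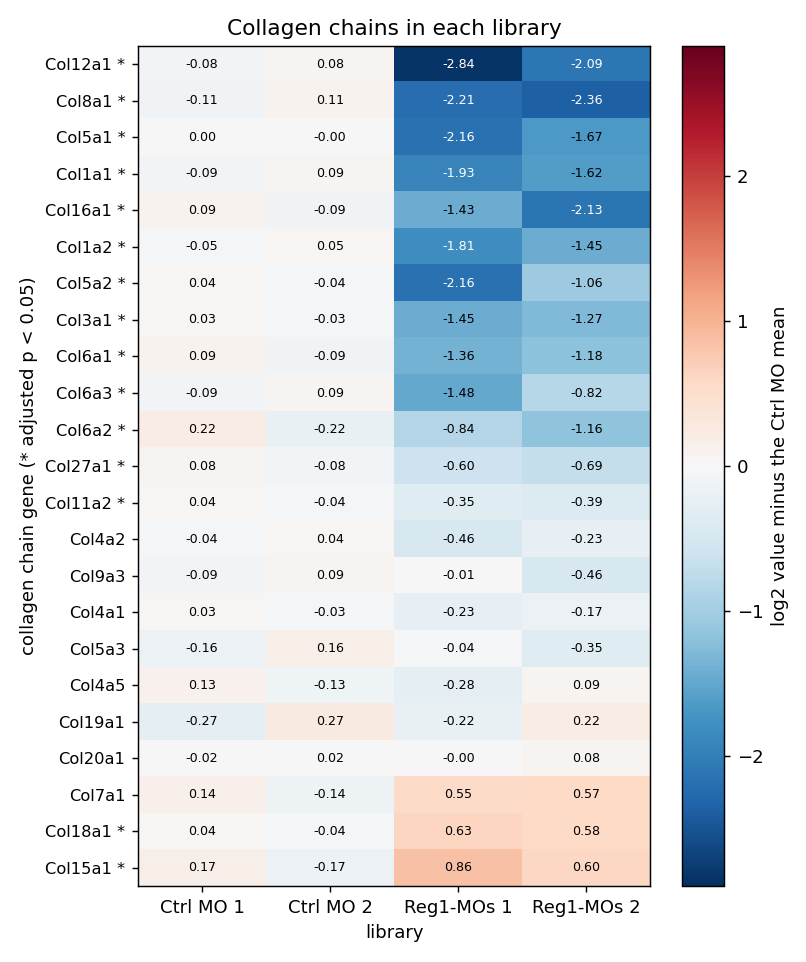
Deposited log2 value of each of the 23 collagen chain genes (rows, sorted by fold change; an asterisk marks adjusted p under 0.05) in each library (columns), after subtracting the gene's mean over the 2 Ctrl MO libraries. Col12a1 is at -2.84 and -2.09 in the Reg1-MOs libraries, the rows down to Col11a2 are blue in both, and Col7a1, Col18a1 and Col15a1 at the bottom are red in both.

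Neighbouring collagen genes are given together. Col3a1 (chr1:45311538-45349706, plus strand) and Col5a2 (chr1:45374321-45503282, minus strand) both fell, by 1.36 and 1.61. So did Col6a2 (chr10:76595762-76623630) and Col6a1 (chr10:76708792-76726168), by 1.00 and 1.27. Col4a1 (chr8:11198423-11312826, minus strand) and Col4a2 (chr8:11312805-11449287, plus strand), the type IV chains of every basement membrane, are transcribed away from each other from overlapping gene starts. Neither passed: Col4a1 had 310 and 297 reads against 262 and 252 (-0.20, SE 0.10), and Col4a2 had 286 and 301 against 216 and 233 (-0.35, SE 0.12). Positions are those of GENCODE M21 on GRCm38, counted from 1.

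Promoter stretches are shown for type I and type III collagen, which fell together, to set their start regions beside each other. Sequences are from RefSeq on GRCm38.p6, cover 120 bases before and 30 from the annotated start, and read 5' to 3' on the gene's strand. Capitals mark matches, on either strand, to any of 4 motifs. The TATA box was searched as TATAAA and the GC box as GGGCGG. The CCAAT box was searched by its own letters, and the AP-1 element as TGANTCA. No pair of these matches overlaps in the stretches printed.
Col1a2 (chr6:4505498-4505647, plus strand): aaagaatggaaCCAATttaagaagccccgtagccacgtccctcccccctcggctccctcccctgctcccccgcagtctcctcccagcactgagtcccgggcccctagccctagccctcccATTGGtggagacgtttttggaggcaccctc
Col3a1 (chr1:45311418-45311567, plus strand): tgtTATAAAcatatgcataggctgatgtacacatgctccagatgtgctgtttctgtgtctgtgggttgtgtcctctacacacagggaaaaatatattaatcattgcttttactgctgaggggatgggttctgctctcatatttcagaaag
The Col1a2 stretch holds 2 CCAAT matches, of which the second, on the opposite strand, begins at the annotated start, and the Col3a1 stretch holds TATAAA 117 bases before its annotated start. The RefSeq start of Col1a2 lies 804 bases from the GENCODE gene start. No RefSeq window was matched for Col1a1. Windows of 300 bases (250 before and 50 from the start) were matched for 60 of the 81 genes, 27 of which fell. Among these 27, GGGCGG was found in 19, CCAAT in 8, TATAAA in 6 and TGANTCA in 2; counted in the same way, as genes with a match in any of their windows, the shares over all 27025 genes with a window were 38.2%, 41.1%, 15.7% and 8.97%. Among the 30 matched genes that did not pass, the counts were 22, 15, 5 and 2. A match is a string of letters and no evidence of binding.

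Of the 6 basement membrane genes, 4 fell and 2 did not pass. Basement membranes are sheets of laminin trimers and type IV collagen, joined by nidogen and the heparan sulphate proteoglycan perlecan. Lamb1, the laminin beta-1 chain, went from 59 and 66 reads to 11 and 17 (-2.11, SE 0.30, limma adjusted p = 0.00517). Nid1, encoding nidogen-1, went from 78 and 83 to 20 and 21 (-1.91, SE 0.20), and Hspg2, encoding perlecan, from 185 and 175 to 67 and 60 (-1.46, SE 0.14). The libraries of the groups were well apart in all 3. Lamb2 fell by 1.00 (SE 0.21), a call lost when Ctrl MO replicate 2, or one of the Reg1-MOs libraries, was left out (adjusted p up to 0.0858) and without a variance trend (0.0789). Lamc1, the gamma-1 chain that most laminins share and the most read of the 6, had 1331 and 1496 reads against 1324 and 1432 (0.00, SE 0.10) with overlapping groups, and stood at -0.08 without Ctrl MO replicate 1 and -0.12 without Reg1-MOs replicate 2. Lama3 had 24 to 31 reads and did not pass.

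Glycoproteins and proteoglycans of the interstitial matrix had the highest share of falls, 11 of 13. Fn1 encodes fibronectin, which links cells to the matrix and is made by macrophages as well as stromal cells. It went from 1950 and 2143 reads to 682 and 803, 2.69-fold lower (log2 -1.43, SE 0.12, limma adjusted p = 0.00121). Bgn, encoding the small proteoglycan biglycan, fell from 581 and 561 to 187 and 160, 3.21-fold (-1.68, SE 0.10, adjusted p = 3.58e-04), the smallest adjusted p of the 81. Both groups were tight in Bgn, while the Reg1-MOs libraries of Fn1 differed by 0.36 (log2). In neither gene did a Reg1-MOs library reach a control.

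The matricellular genes, whose products tune how cells hold on to matrix, moved with them. Postn (periostin) went from 310 and 321 reads to 96 and 107 (-1.59, SE 0.13). Sparc, a collagen-binding protein, went from 396 and 378 to 151 and 118 (-1.49, SE 0.12), and Tnc (tenascin-C) from 403 and 460 to 160 and 165 (-1.36, SE 0.12). Thbs2 was among the largest falls, with 68 and 82 reads against 17 and 18 (-2.02, SE 0.22). Its relative Thbs1, a platelet and macrophage product that activates latent TGF-beta, was read far more, at 2917 and 3411 against 1992 and 2112, and fell less (-0.58, SE 0.10). The difference between these paralogs was not tested.

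Of the large or fibre-bound members, Vcan, which encodes the hyaluronan-binding proteoglycan versican, fell from 5522 and 6654 reads to 3086 and 3944 (-0.76, SE 0.16). Fbn1, the microfibril protein fibrillin-1, fell by 0.69 (SE 0.14); 20.1% of its merged exon length is shared with other genes, most with an antisense one, and the strand setting of the counting is not known. Fbln2 fell by 1.00 (SE 0.19) and the collagen-binding Dcn (decorin), at 41 and 36 reads against 18 and 11, by 1.38 (SE 0.29). Leaving out Reg1-MOs replicate 1 ended the calls of Vcan, Fbn1, Thbs1 and Fbln2 (limma adjusted p up to 0.106). The calls of Fbln2 and Dcn were lost, too, when Ctrl MO replicate 1 or Reg1-MOs replicate 2 was left out (up to 0.0922 and 0.0636). Without a variance trend Vcan, Fbn1, Thbs1 and Dcn did not pass (up to 0.130). Fbln5 and Efemp2, elastic fibre proteins, stood at -0.13 and -0.08 with overlapping groups.

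Stromal cell markers that are no matrix genes were lower as well. Of 30 such markers listed, 18 had rows in the table, and Pdgfra, Thy1 and Lepr were among the 12 with none. Of the 18, 14 fell, 2 rose and 2 did not pass. Cxcl12, a chemokine of marrow stroma, went from 92 and 70 reads to 14 and 17 (-2.30, SE 0.25). The smooth muscle actin gene Acta2 went from 401 and 446 to 142 and 147 (-1.51, SE 0.12), and the fibroblast cadherin Cdh11 from 165 and 158 to 60 and 51 (-1.498, SE 0.14). Fstl1 (-1.44), Prrx1 (-1.51) and Tagln (-1.21) fell as well. Some of the 14 falls did not pass without a variance trend, while those of Acta2, Cdh11 and Fstl1 passed. Of the 18 markers, 6 averaged under 50 reads.

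Not every gene of that marker list fell as far. Pdgfrb, at 1106 and 1109 reads against 730 and 738, fell by 0.55 (SE 0.08), while Cav1 (0.54) and the transcription factor gene Runx2 (0.85) rose. The Cav1 and Runx2 calls ended without either Reg1-MOs library, and also without Ctrl MO replicate 2 and replicate 1 respectively. The list summed to 1609 and 1558 RPM in the controls against 1130 and 1224, most of it from Vcam1. Over the markers averaging 50 reads or more the median was -0.63. The part of a differing stromal cell content in the matrix results was not tested. Of 10 endothelial markers 3 had rows, with no fall and 1 rise. Of 11 neutrophil markers 10 had rows, and none passed.

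**Figure D3:**
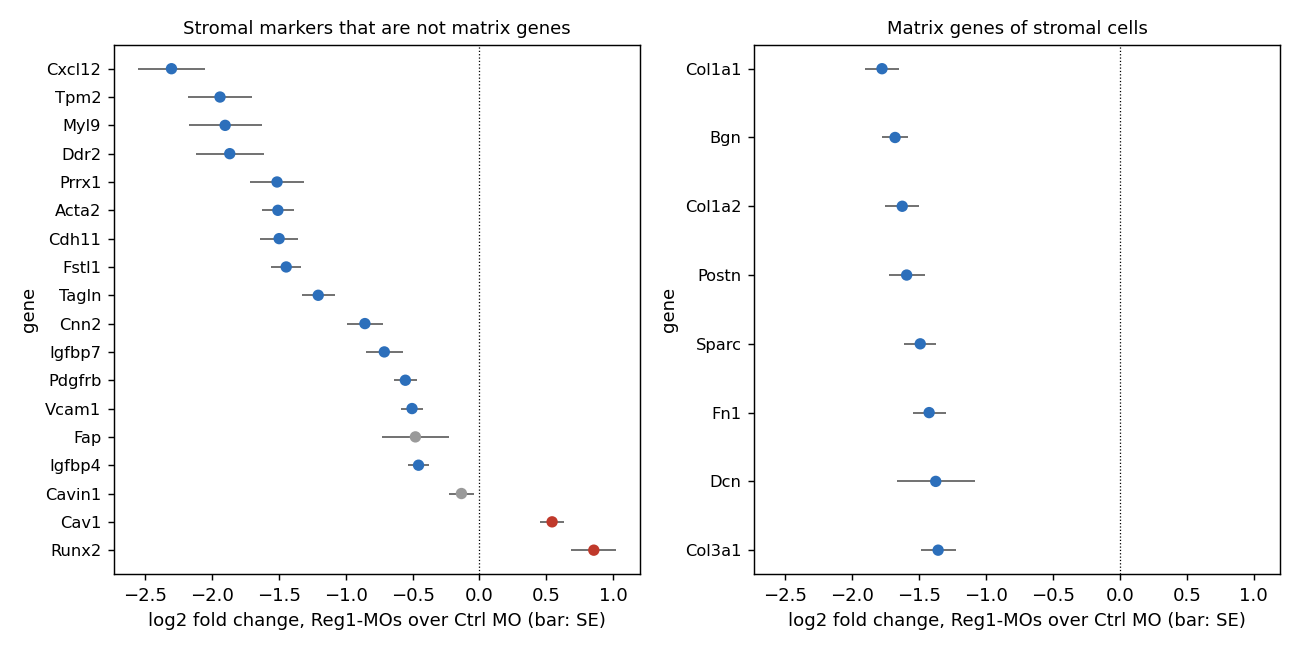
Log2 fold change (Reg1-MOs over Ctrl MO, with moderated SE as bars) of 18 stromal and fibroblast markers that are not matrix genes (left) and 8 matrix genes typical of stromal cells, picked with their values known (right); blue fell, red rose, grey did not pass. On the left Cxcl12 is lowest at -2.30 and Runx2 highest at 0.85; on the right all 8 genes lie between -1.78 (Col1a1) and -1.36 (Col3a1).

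Of the 10 genes for the chaperone and enzymes that prepare collagen, 4 fell and none rose. Serpinh1, the collagen-specific chaperone, had 195 and 169 reads against 54 and 42, 3.68-fold lower (log2 -1.88, SE 0.16, limma adjusted p = 0.00121). The cross-linking enzymes Loxl2 (64 and 81 against 38 and 22; -1.26, SE 0.26) and Loxl1 (74 and 90 against 42 and 29; -1.17, SE 0.22) fell, as did Plod2, the hydroxylase for telopeptide lysines (103 and 128 against 61 and 60; -0.88, SE 0.17). The Serpinh1 call held without any 1 library. That of Loxl2 ended without Reg1-MOs replicate 2 (adjusted p = 0.0695), that of Loxl1 without either Reg1-MOs library (up to 0.0557), and that of Plod2 without those or Ctrl MO replicate 2 (up to 0.1002). Of the 4 falls, 1 was left without a variance trend.

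Lox itself had 240 and 271 reads against 117 and 182 (-0.76, SE 0.23, limma adjusted p = 0.0705), with both Reg1-MOs libraries below both controls, as in 31.8% of all genes. It passed with equal totals, with a replicate block and without Ctrl MO replicate 1, Ctrl MO replicate 2 or Reg1-MOs replicate 2. The 2 most read genes of the group were Plod3, at 5626 and 5639 reads against 5364 and 4672 (-0.13, SE 0.06), and P4ha1, at 3231 and 3278 against 3466 and 3210 (0.07, SE 0.06). Neither passed; on the deposited scale both Reg1-MOs libraries lay below the controls for Plod3 and above them for P4ha1. A list of further folding and processing genes, 11 of 20 of them in the table, had 2 falls, the procollagen C-proteinase Bmp1 (871 and 845 against 593 and 526; -0.58, SE 0.08) and its enhancer Pcolce (41 and 38 against 20 and 13; -1.23, SE 0.27). It had 1 rise, that of Ctsk, the collagen-cutting cathepsin (126 and 114 against 258 and 191; 0.93, SE 0.15). Its median was -0.03. The Pcolce call was lost when Ctrl MO replicate 1, or one of the Reg1-MOs libraries, was left out, and that of Ctsk when Reg1-MOs replicate 1 was.

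The Mmp family includes the most read of the 81 genes, and its well-read members fell by less than 2-fold or did not pass. Of 10, 4 fell and none rose, with a median of -0.35. Mmp13, collagenase-3, went from 47510 and 48414 reads to 28037 and 28481, 1.65-fold lower (log2 -0.72, SE 0.07, limma adjusted p = 0.00171). Mmp12, the macrophage elastase, had 40989 and 39258 against 39866 and 33915 (-0.09, SE 0.07, adjusted p = 0.441). Mmp14, the membrane-bound activator of Mmp2, had 12208 and 12237 against 11977 and 11224 (-0.04, SE 0.06, adjusted p = 0.723). Of the 3, only Mmp13 passed, and its groups were far apart relative to their spread. Per length, Mmp13 stood at a mean RPKM of 716 with Ctrl MO and 441 with Reg1-MOs, Mmp12 at 221 and 212 and Mmp14 at 81.8 and 81.05.

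The gelatinases and Mmp25 were the other falls. Mmp9, gelatinase B, had 915 and 902 reads against 598 and 427 (-0.81, SE 0.12, limma adjusted p = 0.00728). Mmp25, a membrane-anchored enzyme of leukocytes, had 796 and 767 against 462 and 458 (-0.72, SE 0.09). Mmp2, the gelatinase made mostly by fibroblasts, was read little, at 67 and 62 against 20 and 33, and had the largest fall of the family (-1.27, SE 0.29); its call ended without Reg1-MOs replicate 1 (adjusted p = 0.0861). Mmp9 (0.0714) and Mmp2 (0.106) did not pass without a variance trend. The 10 genes summed to 5403 and 5366 RPM in the controls against 4213 and 4227, of which Mmp12, Mmp13 and Mmp14 made up 5280 and 5242 against 4122 and 4144.

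Mmp12 and Mmp13 lie in the Mmp cluster of chromosome 9, Mmp13 at chr9:7272514-7283331 and Mmp12 at chr9:7344381-7369499, both on the plus strand, followed by Mmp8 (chr9:7558456-7568485) and Mmp27 (chr9:7571396-7581885). Mmp8 (-0.24, SE 0.15) and Mmp27 (-0.46, SE 0.16) did not pass, so Mmp13 was the only called member of these 4. The difference between Mmp13 and its neighbours was not tested. The start regions of this pair are shown because they are neighbours with like read counts of which one fell.
Mmp13 (chr9:7272394-7272543, plus strand): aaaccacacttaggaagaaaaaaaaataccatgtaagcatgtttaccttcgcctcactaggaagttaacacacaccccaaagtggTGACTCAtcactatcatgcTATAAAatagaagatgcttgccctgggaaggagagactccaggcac
Mmp12 (chr9:7344277-7344426, plus strand): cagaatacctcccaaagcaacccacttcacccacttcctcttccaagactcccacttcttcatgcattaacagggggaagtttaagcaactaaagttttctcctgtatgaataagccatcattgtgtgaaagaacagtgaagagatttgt
The Mmp13 stretch holds an AP-1 element, TGACTCA, 35 to 29 bases before the annotated start and TATAAA 16 to 11 bases before it. None of the 4 motifs is in the 150 bases of Mmp12, while TATAAA and the AP-1 element are both found in its RefSeq windows of 300 bases.

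Among the Adam genes, a family that includes membrane-bound metalloproteinases that shed cell-surface proteins, 1 of 9 rose and none fell. Over all genes, 6.22% rose and 6.03% fell. Adam8, a leukocyte sheddase, went from 6850 and 6895 reads to 12585 and 11441, 1.79-fold higher (log2 0.84, SE 0.06, limma adjusted p = 5.96e-04). It was the largest rise of the 81, the groups were far apart, and it passed in every alternative tried. Adam17, the TNF-converting enzyme and the most read of the family, had 17457 and 18066 against 15631 and 16018 (-0.13, SE 0.07, adjusted p = 0.296). Adam9 (-0.08, SE 0.10) did not pass either, and its groups overlapped. The other 6 ran from -0.39 to 0.19; for Adam1a 63.7% of the merged exon length is shared with another annotated gene, and its value is uncertain. The Adam8 start region is given as that of the protease gene that rose.
Adam8 (chr7:139992533-139992682, minus strand): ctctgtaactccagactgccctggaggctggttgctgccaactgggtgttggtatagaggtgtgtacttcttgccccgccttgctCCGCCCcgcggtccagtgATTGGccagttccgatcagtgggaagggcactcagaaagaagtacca
It holds a GC box match on the opposite strand 35 to 30 bases, and a CCAAT match on the opposite strand 17 to 13 bases, before the annotated start.

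The secreted Adamts genes, which encode aggrecanases, procollagen N-proteinases and related proteins, had 1 fall among 7, where 6.03% of all genes fell. Adamts4, an aggrecanase, had 3050 and 3005 reads against 2124 and 2068 (-0.49, SE 0.07, limma adjusted p = 0.00534; 0.0604 without a variance trend). Adamts1 (-0.52, SE 0.18) and the procollagen N-proteinases Adamts2 (-0.82, SE 0.26) and Adamts14 (-0.65, SE 0.22) did not pass. In each, both Reg1-MOs libraries were below both controls, a pattern shown by 31.8% of all genes. These genes had 21 to 115 reads per library. Adamts4 was thus called at a smaller change than these 3, on many more reads.

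Of the 3 inhibitors, the 2 with few reads fell and the abundant one did not pass. Timp1 went from 235 and 222 reads to 111 and 63 (-1.40, SE 0.22, limma adjusted p = 0.00754). Timp3, a matrix-bound inhibitor that also acts on Adam17, had 145 and 221 against 55 and 46 (-1.78, SE 0.21, adjusted p = 0.00295). The Timp3 call ended without Reg1-MOs replicate 1 (0.0570) and that of Timp1 without a variance trend (0.0705). In the Timp3 gene 21.3% of the merged exon length is shared with other genes, most with Syn3 on the other strand. Timp2 had 5620 and 5556 reads against 6270 and 5616 (0.13, SE 0.06, adjusted p = 0.224). Per length Timp2 stood at a mean RPKM of 57.2 with Ctrl MO and 63.5 with Reg1-MOs. In RPM the 3 genes summed to 315 and 315 in the controls against 332 and 322. Most of this was Timp2, at 295 and 292 RPM against 324 and 316.

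**Figure D4:**
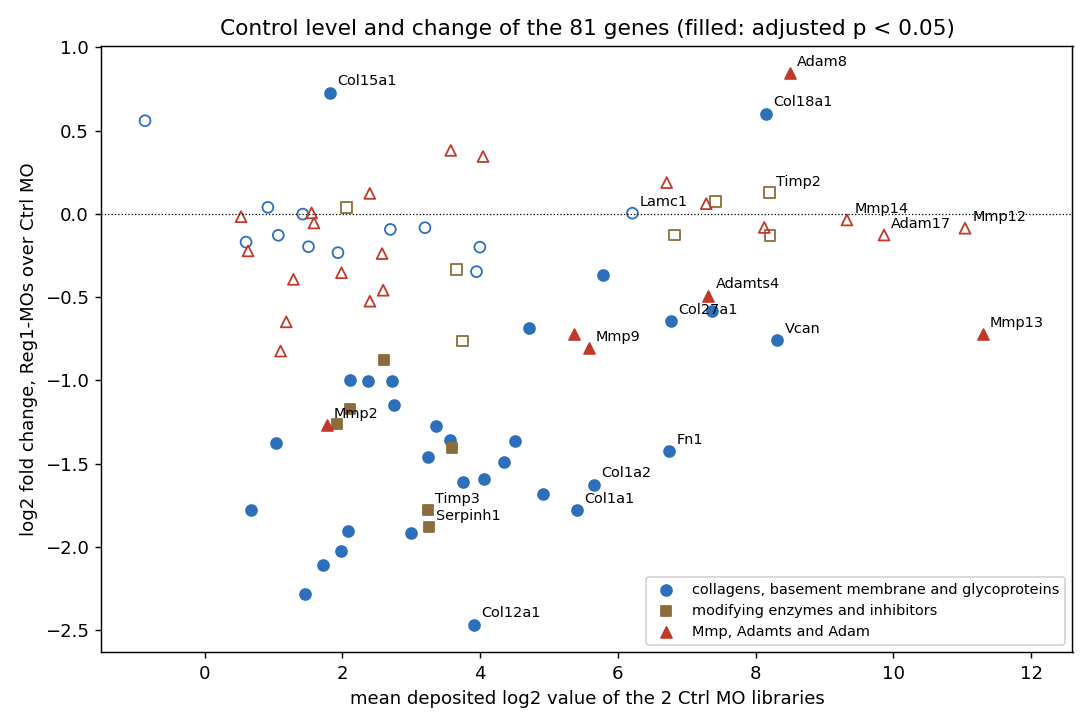
Mean deposited log2 value over the 2 Ctrl MO libraries (horizontal axis) against log2 fold change (vertical axis) for the 81 genes; filled symbols passed the adjusted p of 0.05. Structural genes (circles) reach down to -2.47 at low and middle levels, the most read proteases (triangles) lie between -0.72 (Mmp13) and 0.84 (Adam8), and Col18a1 stands apart from the other collagens at upper right.

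The members that fell were not lower in 1 Reg1-MOs library throughout. Of the 39, 23 were lower in replicate 1 and 16 in replicate 2, and the median of replicate 2 minus replicate 1 was 0.11 on the log2 scale, against 0.01 over the table. Fallen collagens (8 of 13) and glycoproteins (8 of 11) were more often lower in replicate 1, and both Timp genes and 3 of the 4 modifying enzymes in replicate 2. The lower library thus differed between role groups, and these counts carry no test. Of the 39 falls, 19 passed in every alternative that included the gene. These 19 include Col1a1, Col1a2, Col3a1, Col5a1, Col12a1, Bgn, Fn1, Sparc, Postn, Tnc, Thbs2, Nid1, Hspg2, Serpinh1, Mmp13 and Mmp25. Thbs2, Lamb1 and Col8a1, also of the 19, averaged under 50 reads and were not in the alternative with that minimum.

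Matrix-degrading enzymes outside the Mmp and Adam families had more rises than falls. Of 22 listed cathepsins, plasminogen activators, hyaluronidases and regulators in the table, 7 rose and 2 fell, with a median of 0.17. The lysosomal cysteine protease gene Ctss, an elastin-cutting enzyme of macrophages, had 69011 and 66724 reads against 96323 and 90025 (0.50, SE 0.06, limma adjusted p = 0.00367). Ctsd (0.46), Ctsl (0.43), Ctsh (0.41) and Ctsz (0.38) rose too. The protease inhibitor Serpine2 fell from 127 and 101 to 39 and 46 (-1.37, SE 0.20). Of these 6 named genes, only Ctss passed without any 1 library. Ctsd and Ctsl lost their calls without Ctrl MO replicate 2 and without Reg1-MOs replicate 1, Ctsh without either control, Ctsz when any library but Reg1-MOs replicate 2 was left out, and Serpine2 without Reg1-MOs replicate 1. None of the 7 rises passed without a variance trend, and 1 was left without Ctrl MO replicate 2.

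Matrix receptors held both patterns. Of 20 in the table, 7 fell and 1 rose, with a median of -0.21. The collagen receptor Ddr2, a gene also among the stromal markers, went from 43 and 54 reads to 13 and 12 (-1.87, SE 0.26). The collagen-uptake receptor Mrc2 fell by 1.51 (SE 0.25), the syndecan Sdc2 by 1.21 (SE 0.21) and the collagen-binding integrin chain Itga1, from 148 and 150 to 67 and 78, by 1.00 (SE 0.16). Sdc1 rose from 1661 and 1638 to 2485 and 2355 (0.59, SE 0.07). Without Reg1-MOs replicate 1 the falls of Mrc2, Sdc2 and Itga1 did not pass, and 1 fall of the 7 was left as a count; Sdc2 did not pass without Reg1-MOs replicate 2 either. Itga9 (-0.35) lost its call without either control, and also without Reg1-MOs replicate 1.

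TGF-beta is the chief inducer of matrix genes in fibroblasts and is stored in the matrix bound to latency proteins. Of 19 genes of this pathway in the table, 4 fell and 3 rose, with a median of -0.12. The latent TGF-beta binding protein gene Ltbp2 had 164 and 153 reads against 53 and 52 (-1.54, SE 0.15), and Lrrc32, which holds latent TGF-beta on the cell surface, 171 and 186 against 86 and 67 (-1.19, SE 0.15). The matricellular target genes Ccn1 (-1.23, SE 0.24) and Ccn2 (-0.76, SE 0.15) fell. The secreted TGF-beta-induced protein gene Tgfbi rose from 1426 and 1424 to 2233 and 2444 (0.75, SE 0.09), and the receptor Tgfbr1 from 1502 and 1663 to 2184 and 2442 (0.59, SE 0.11). The targets Skil (0.36, SE 0.13) and Smad7 (0.22, SE 0.33) of the same list did not pass. Skil did in some alternatives, among them quantile normalization, equal totals and leaving out Reg1-MOs replicate 1. The Ccn1 call ended without Reg1-MOs replicate 1, that of Ccn2 when Ctrl MO replicate 2, or one of the Reg1-MOs libraries, was left out, and that of Tgfbr1 without Reg1-MOs replicate 2. With no variance trend, 2 falls and no rise were left.

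Genes that make hyaluronan and the sugar chains of proteoglycans fell or did not pass. Of 17 in the table, 6 fell and none rose, with a median of -0.03. The hyaluronan synthase Has1 went from 68 and 59 reads to 30 and 30 (-1.03, SE 0.20). Chsy1, a chondroitin synthase, fell by 0.65 (SE 0.15), and the heparan sulphate enzymes Ndst2 (-0.42) and Extl3 (-0.36), the UDP-glucose dehydrogenase Ugdh (-0.34) and Srgn, the intracellular proteoglycan serglycin of blood cells (16077 and 15349 against 12570 and 11323; -0.36, SE 0.06), fell less. All 6 calls ended without Ctrl MO replicate 1 and without Reg1-MOs replicate 1, and 1 was left without Ctrl MO replicate 2 or without a variance trend.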

How the data were processed

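Poly(A) RNA was sequenced from 4 libraries. The tools named in the submitters' processing notes are cutadapt, FastQC and HISAT2 1.6.3, with build mm10. How reads were counted (strand included), filtered and normalized is not given in the sources used here. As expression values, the authors deposited 1 log2 value per gene and library. For 100% of values, 2 to that power was a whole number of reads plus 0.5 (tolerance 0.01) times a constant per library, so reads were recovered; the constants imply library sizes of 17767798 to 19377000, and the scaling behind them is not stated. The 2 libraries of a group limit precision, and read counts carry counting error besides.

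Columns were matched to groups by the sample titles. The main test was limma 3.58.1 (R 4.3.3) with a mean-variance trend on the deposited values of all 11111 genes, unfiltered, two-sided, with group as the only term (5.47 prior and 2 residual degrees of freedom). Merged exon lengths and positions are from GENCODE M21, whose assembly GRCm38 is the one mm10 names, and promoters from RefSeq (GRCm38.p6). Alternatives were no trend, an offset of 8 reads, a mean of at least 50 reads, quantile normalization, equal totals, voom weights, each library left out and a replicate block. Where 1 library was left in a group, it was assumed to vary like the other group.

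Members, role groups, related lists and markers were chosen with earlier results of these data known. Named are Zc3h12a, all members past the threshold, the 2 most read of each role group, and up to 6 called genes per related list; 25 other genes, such as Lox, Skil, Smad7, Col4a1, Mmp8 and the cell markers, were named after their values were seen, as were those given only by a group's range. The lymphocyte, mast cell, endothelial and neutrophil marker lists had 2, 1, 3 and 10 rows, with 1, 0, 1 and 0 rises and 0, 1, 0 and 0 falls.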

Additional observations from a re-analysis of the deposited data

How the results depend on the processing

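With an offset of 8 reads, voom weights, equal totals, quantile normalization or a mean of at least 50 reads, the counts of members and of role groups stayed within 1.5 times those reported. Without a variance trend, 21 members fell and 2 rose: 7 collagens fell and 1 rose, and falls numbered 1 among modifying enzymes, 7 among glycoproteins, 2 among Mmp, 0 among Adamts, 1 among Timp and 2 among all proteases; of all genes, 182 fell and 195 rose. Leaving out 1 library gave 27 to 37 falls and 2 to 3 rises among members, and 258 to 860 falls and 249 to 530 rises over the table. By group the ranges of falls were 10 to 12 for collagens (1 to 2 rises), 2 to 5 for modifying enzymes, 1 to 2 for Timp and 7 to 11 for glycoproteins. Lamc1, which did not pass, ranged from -0.115 to 0.123 and was below 0 when Ctrl MO replicate 1 was left out (-0.081) and when Reg1-MOs replicate 2 was. The macrophage marker Csf1r ranged from -0.011 to 0.0342 and was below 0 without the same libraries (-0.00681 without the latter). Smad7 ranged from -0.215, when Ctrl MO replicate 2 was left out, to 0.655.

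With a replicate block, 45 members fell and 6 rose, 3 Adamts genes fell, 2 Adam genes rose, 8 proteases fell and 4 rose, and of all genes, 1891 fell and 1532 rose. The labels state no pairing; across genes, the replicate differences of the 2 groups correlated at 0.0958 over all 11111 and at 0.314 over the 9476 averaging 50 reads or more. The causes of these shifts were not tested. Low reads limit genes such as Dcn, Col16a1 and Col7a1.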
